A study of Mus musculus with 3 samples.

Results

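The genes described here encode the proteins of the cytosolic ribosome (symbols beginning Rpl, Rps, Rplp or Rpsa) and of the mitochondrial ribosome (symbols beginning Mrpl or Mrps). They were found by name in the platform's table of probes and genes: 148 oligos carried exactly 1 symbol of this kind and stood for 140 genes, 68 cytosolic and 72 mitochondrial. A value on all 3 arrays was held by 137 of them, 66 cytosolic and 71 mitochondrial, among 19635 genes tested in all. Rps13 and Rps19 had no value on array 3 (Rps19, the gene most often mutated in Diamond-Blackfan anaemia, had -0.18 and -0.17 on arrays 1 and 2), and Mrpl53 had a value on array 2 only, so these 3 genes were not tested.

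Each of the 3 2-colour oligonucleotide arrays compared RNA of mouse kidney at 13.5 dpc (days post coitum) with RNA of metanephric mesenchyme at 10.5 dpc. The mesenchyme is the embryonic tissue that forms the nephrons of the permanent kidney. The tissues were microdissected from CD1 embryos, with males and females pooled together, and amplified RNA was labelled. Each array gave 1 deposited log2 ratio per oligo. The labels do not state which RNA was the numerator, so a gene is described only by the sign of its ratio, positive or negative, and no sign is read as higher in either tissue. They also do not state whether each array had its own pool of tissue, so errors and p-values cover the spread between the 3 arrays alone, and that spread may be technical.

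A ribosome of the cytosol translates the messages of nuclear genes and is built in the nucleolus from a small and a large subunit in near-equal numbers of copies of each protein. Its genes are among the most highly expressed of any growing cell, and most of their messages begin with a tract of pyrimidines that lets their translation be adjusted together by growth signals. The mitochondrial ribosome descends from a bacterial one and makes the few respiratory chain subunits encoded by mitochondrial DNA, but all its proteins are encoded in the nucleus and imported. It keeps many proteins with bacterial counterparts and has gained others found only in mitochondria.

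Promoter stretches of 7 members are shown because these genes stand for the positions the ratios took: near the cytosolic median (Rpl4), on the positive side of the cytosolic genes (Rpl23, Rps25), and at the negative (Mrpl9, Mrps30) and positive (Mrpl32, Mrpl1) ends of the mitochondrial genes. Each covers the 80 bases before the RefSeq start site in build GRCm38.p6, 5′ to 3′. Capitals mark the letters of a searched motif, namely the pyrimidine motif CTTTCC in the direction of transcription or the ETS motif CCGGAAG on either strand. Rpl4 was picked for holding the pyrimidine motif there.
Rpl4, chr9:64173307-64173386, plus strand: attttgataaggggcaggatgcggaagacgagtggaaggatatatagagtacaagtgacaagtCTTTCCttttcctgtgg
Rpl23, chr11:97782440-97782519, minus strand: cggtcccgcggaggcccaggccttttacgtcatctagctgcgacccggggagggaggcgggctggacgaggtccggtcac
Rps25, chr9:44407634-44407713, plus strand: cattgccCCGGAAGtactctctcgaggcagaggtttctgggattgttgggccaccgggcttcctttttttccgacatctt
Mrpl9, chr3:94443256-94443335, plus strand: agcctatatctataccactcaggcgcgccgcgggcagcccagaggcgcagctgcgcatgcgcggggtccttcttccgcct
Mrps30, chr13:118387253-118387332, minus strand: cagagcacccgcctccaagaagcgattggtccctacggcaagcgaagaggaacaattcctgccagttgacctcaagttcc
Mrpl32, chr13:14613038-14613117, minus strand: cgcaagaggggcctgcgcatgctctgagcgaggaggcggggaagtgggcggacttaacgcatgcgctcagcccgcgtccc
Mrpl1, chr5:96210035-96210114, plus strand: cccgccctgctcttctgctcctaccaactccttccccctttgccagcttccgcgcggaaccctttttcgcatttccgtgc

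Windows of 250 bases before to 50 after the start were listed for 120 of the 140 members. Within 50 bases of the start, CTTTCC stood in 16 of 56 cytosolic genes (28.6%) and 5 of 64 mitochondrial genes (7.81%), against 5.43% of all 27025 genes with a window. CCGGAAG, the core recognised by ETS factors, stood on either strand of the whole window in 25 of 56 cytosolic (44.6%) and 23 of 64 mitochondrial genes (35.9%), against 9.93% of all genes. AAGATGGC, part of the site of the factor YY1, stood in 4 of 56 (7.14%) and 11 of 64 (17.2%), against 3.19%, on either strand. CCGGAAG and AAGATGGC can share the letters AAG where they meet. A match is a description of the window, and an absence says only that the letters were not in the window listed.

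Over all genes, array 3 stood apart from the others. The labels describe a dye swap but do not name its array. Over all 19635 genes its ratios correlated at r = 0.17 with array 1 and 0.16 with array 2, against 0.46 between arrays 1 and 2; these are correlations across genes, which are not independent replicates. The median ratio of all genes was 0.0043, 0.030 and -0.0029 on arrays 1, 2 and 3. Marker lists of other cell types lay to the negative side: 14 of 16 red-cell genes, 10 of 10 muscle genes and 7 of 8 gut and liver genes had negative means, with medians of -0.32, -0.63 and -0.71, while 12 of 14 nephron genes had positive means, with a median of 0.48. In tissue, a difference in the number of cells of a type and a difference in RNA per cell cannot be told apart. The part of these cells in the ribosomal ratios was not tested. Across the red-cell, nephron and muscle genes, array 3 correlated with array 1 at r = 0.97, 0.98 and 0.75. Arrays 1 and 2 correlated there at 0.92, 0.85 and 0.72. The order was the reverse across the gut and liver genes, at 0.70 and 0.91, and across a list of neural genes, at 0.17 and 0.84.

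Kidney at 13.5 dpc was set against mesenchyme at 10.5 dpc to find genes whose RNA level differs between them. The middle of each ribosome's genes lay near 0. The median log2 ratio was -0.07 for the 66 cytosolic genes and -0.01 for the 71 mitochondrial genes, against 0.00 for all genes tested. On arrays 1, 2 and 3 the cytosolic median was -0.15, -0.09 and 0.03, and the mitochondrial median was 0.05, 0.04 and -0.11. The difference, cytosolic minus mitochondrial, was thus -0.20, -0.13 and 0.14 on arrays 1, 2 and 3, with a value of -0.06 ± 0.18 (SD, n = 3 arrays) on the gene means, so its size was below the spread between arrays. The difference was -0.01 without array 1, -0.04 without array 2 and -0.17 without array 3, where the medians were -0.13 for cytosolic and 0.04 for mitochondrial genes. Negative means were held by 45 cytosolic genes and 36 mitochondrial genes, against 49.7% of all genes. With means in place of medians the difference changed sign, to 0.05.

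What set the classes apart was their width. The interquartile range of the cytosolic genes was 0.17 log2 units, from -0.14 to 0.04, and that of the mitochondrial genes 0.59, from -0.29 to 0.29, against 0.50 for all genes. A mean ratio under 0.25 in size was found for 55 of 66 cytosolic genes (83.3%) and 29 of 71 mitochondrial genes (40.8%), against 50.0% of all genes. At 0.5 or more in size were 5 cytosolic genes (7.58%) and 14 mitochondrial genes (19.7%), against 22.4% of all genes. The mitochondrial share was thus close to that of genes at large, and it was the cytosolic genes that were narrow. On every array the interquartile range was smaller for cytosolic genes, at 0.25, 0.27 and 0.14 on arrays 1, 2 and 3, than for mitochondrial genes, at 0.68, 0.61 and 0.51. The difference in width is a description, with no test.

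**Figure D1:**
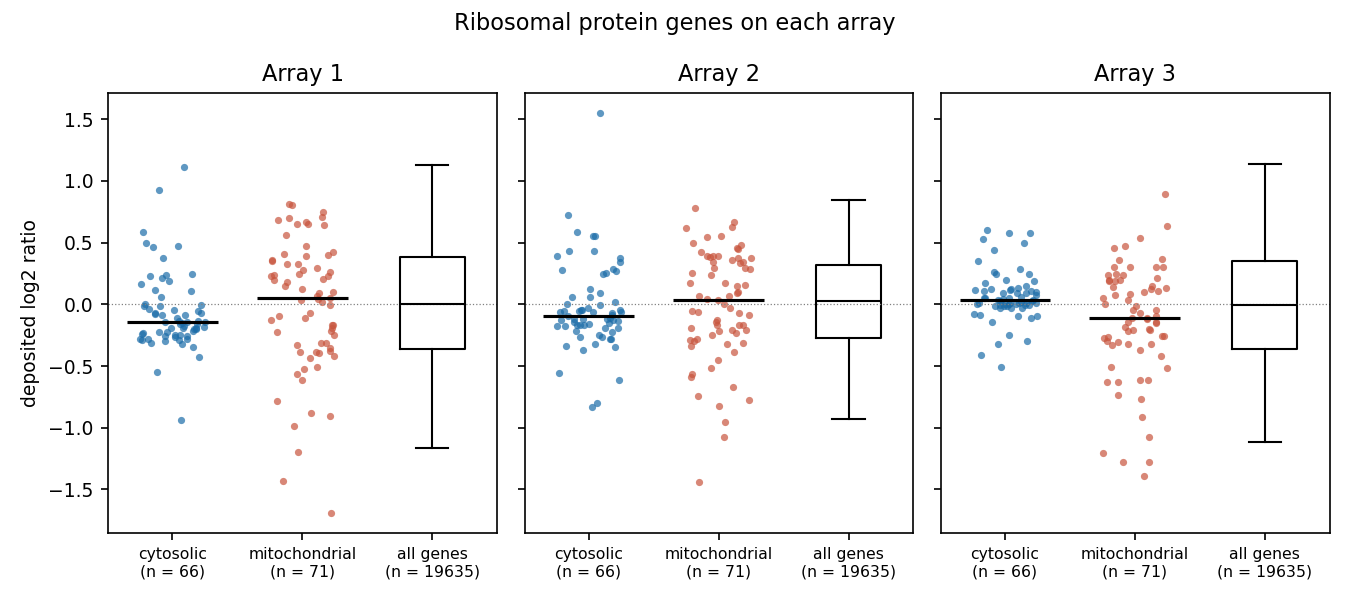
Deposited log2 ratio (vertical axis) of each cytosolic and each mitochondrial ribosomal protein gene on arrays 1, 2 and 3, with a bar at the class median, beside all 19635 genes as a box of the quartiles with whiskers at the 5th and 95th percentiles. The 66 cytosolic genes form a narrow band whose median lies at -0.15, -0.09 and 0.03, while the 71 mitochondrial genes spread more widely, with an interquartile range of 0.68, 0.61 and 0.51 against 0.74, 0.59 and 0.72 for all genes.

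No ribosomal protein gene passed the test over all genes. Limma with Benjamini-Hochberg adjustment called 0 of 66 cytosolic and 0 of 71 mitochondrial genes at an adjusted p of 0.05, against 1 of 19635 genes in all, or 0.00509%. At an unadjusted p under 0.05 stood 4 cytosolic genes (6.06%), all positive, and 19 mitochondrial genes (26.8%), of which 7 were positive and 12 negative. The share over all genes was 16.8%, 8.99% positive and 7.83% negative. The mitochondrial count was 8 without array 1 and 8 without array 2, and the cytosolic count 0 and 1. The share over all genes was not counted in those fits, so these lower counts cannot be set against it. The lowest limma adjusted p was 0.151 among cytosolic genes, for Rpl23, and 0.107 among mitochondrial genes, for Mrpl9.

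Among the cytosolic genes the commonest pattern was a negative ratio on arrays 1 and 2 and a positive one on array 3. It was shown by 30 of 66 genes (45.5%), against 6 of 71 mitochondrial genes (8.45%) and 13.3% of all genes. Over these 30 genes the median was -0.23, -0.18 and 0.07 on arrays 1, 2 and 3. Because the dye-swapped array is not named, an effect of the dyes cannot be told apart from this pattern and was not tested. Rpl11 and Rpl5, which bind the 5S ribosomal RNA together and can hold the p53 regulator Mdm2, both had it. Rpl11 stood at -0.35, -0.32 and 0.01 on arrays 1, 2 and 3 (mean -0.22 ± 0.20, SD, n = 3), and Rpl5 at -0.23, -0.26 and 0.09 (mean -0.13 ± 0.19). Array 3 was above the other arrays for both genes, and neither mean exceeded the 95% interval of limma around it (± 0.44 and ± 0.43).

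Of the small subunit proteins, 23 genes had a median of -0.09 and ran from -0.55 to 0.54. Rps6, the protein phosphorylated by the S6 kinases when growth signals are active, was the lowest cytosolic gene, with -0.94, -0.80 and 0.09 on arrays 1, 2 and 3 (mean -0.55 ± 0.56, limma adjusted p = 0.381). Arrays 1 and 2 were low and array 3 was not, and without array 3 the mean was -0.87. Rps26, which lies where messenger RNA leaves the subunit, had the same form at -0.55, -0.62 and 0.10 (mean -0.35 ± 0.39), or -0.58 without array 3.

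On the positive side of the small subunit were Rps25 and Rps20. Rps25, needed in human cells for initiation on some viral internal entry sites, had 0.47, 0.58 and 0.58 on arrays 1, 2 and 3, a mean of 0.54 ± 0.06 or 1.46-fold (limma adjusted p = 0.204). Rps20, a protein of the subunit's head with a counterpart in bacteria, had 0.50, 0.55 and 0.49, a mean of 0.51 ± 0.03 or 1.43-fold (limma adjusted p = 0.213). All arrays were high for both genes and lay close together. Rps21 averaged 0.30 ± 0.34, with array 3 on the negative side at -0.08. Rps18 averaged -0.23 ± 0.06 over 2 oligos that parted on array 3, at -0.65 and 0.06, with SDs of 0.29 and 0.17 of their own, and Rps10 averaged -0.21 ± 0.26.

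The 43 large subunit genes had a median of -0.07 and ran from -0.22 to 0.80. Rpl23, which like Rpl5 and Rpl11 can bind Mdm2, had 0.93, 0.72 and 0.60 on arrays 1, 2 and 3, a mean of 0.75 ± 0.16 or 1.68-fold (limma adjusted p = 0.151). All 3 arrays were high. Rpl37 had the highest cytosolic mean, but its arrays did not share a sign: they stood at 1.12, 1.55 and -0.25 (mean 0.80 ± 0.94, limma adjusted p = 0.393), and the mean without array 3 was 1.33. Rpl24 averaged 0.29 ± 0.23. At the low end Rpl32 averaged -0.22 ± 0.53, Rpl21 -0.21 ± 0.18 and Rpl28 -0.20 ± 0.20.

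The acidic stalk, which recruits elongation factors, is made of Rplp0, Rplp1 and Rplp2. Their means were 0.08 ± 0.06, -0.09 ± 0.09 and -0.16 ± 0.10, all under 0.25 in size, as for 83.3% of cytosolic genes. The Rplp0 value averages 2 oligos of opposite sign, at 0.25 and -0.08. A list of 18 genes mutated in Diamond-Blackfan anaemia, a human failure of red-cell production caused by loss of single ribosomal proteins, had 13 measured members with a median of -0.11 (range -0.35 to 0.22) and 0 at an unadjusted limma p under 0.05, against 16.8% of all genes.

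Several cytosolic proteins have a paralogue, and 5 of 6 paralogues on the list were measured. Rpl39l, which replaces Rpl39 in male germ cells, had 0.47, 0.34 and 0.58 on arrays 1, 2 and 3 (mean 0.46 ± 0.12, limma adjusted p = 0.253), and its parent Rpl39 had 0.21, 0.06 and 0.25 (mean 0.17 ± 0.10). All arrays were positive for both. Rpl3l, the form of striated muscle, had arrays of opposite sign at 0.37, -0.01 and -0.50 (mean -0.05 ± 0.44), while Rpl3 stood at -0.15 ± 0.04. Rpl22l1 and its parent Rpl22 stood at -0.11 ± 0.18 and -0.01 ± 0.12, Rpl7l1 and Rpl7 at -0.11 ± 0.19 and -0.06 ± 0.09, Rps27l at 0.01 ± 0.08, and Rpl10 at -0.06 ± 0.16. The ratios of paralogue and parent were not tested against each other.

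Of the 137 members, 8 were measured by 2 oligos each, all of them cytosolic, and the oligos did not always give the same ratio. For Rpl27a an oligo averaged 0.74 ± 0.05, with 0.80, 0.71 and 0.72 on the 3 arrays, and the other averaged -0.06 ± 0.35. For Rpl35a the oligos averaged 0.63 ± 0.35 and -0.20 ± 0.26, for Rps16 0.33 ± 0.48 and -0.13 ± 0.11, and for Rplp0 0.25 ± 0.17 and -0.08 ± 0.13. In these 4 genes the same oligo was the higher on all 3 arrays. For Rpl23 both oligos were positive on every array, at 0.94 ± 0.16 and 0.56 ± 0.18.

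Some of these oligos are listed under records of small RNA clones. Of 30 library oligos in that numbered run of records, 29 had 1 symbol, 8 of those symbols were of small nucleolar or small nuclear RNA genes, and 5 were members: Rpl23, Rpl27a, Rpl32, Rps12 and Rps16. RefSeq places at least 1 small nucleolar RNA gene inside each of these 5 genes, and 1 of the records is itself the name of the small nucleolar RNA gene inside Rps16. The higher oligo of Rpl27a and of Rps16, the lower oligos of Rpl23 and Rps12 and the only oligo of Rpl32 are of this kind, and which RNA these oligos read was not tested. With all such oligos left out, an alternative added after seeing the data, Rpl27a stood at -0.06 and Rpl23 at 0.94, Rps16 turned to -0.13 from its other oligo, against 0.10 with both, Rps12 stood at -0.14, Rpl32 had no value, and the cytosolic median was -0.07 as before. Ribosomal protein genes also have many processed pseudogenes of near-identical sequence, which a long oligo may not separate.

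**Figure D2:**
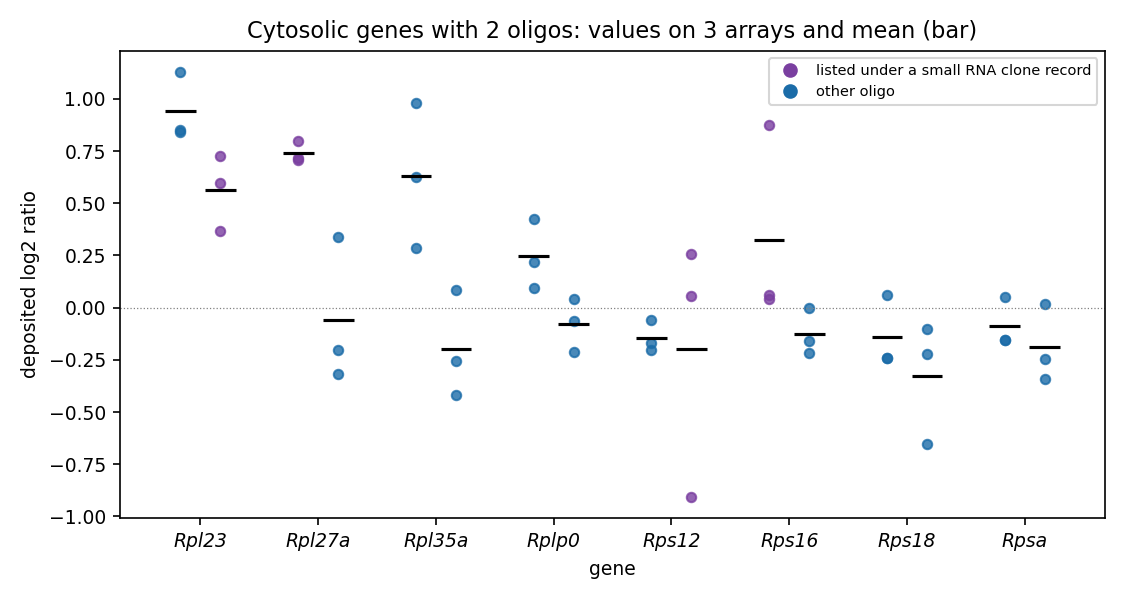
Deposited log2 ratio on the 3 arrays (points) and their mean (bar) for the 8 cytosolic genes measured by 2 oligos, with the oligo of higher mean on the left of each pair and purple marking oligos listed under small RNA clone records. The oligos of Rpl27a (means 0.74 and -0.06) and Rpl35a (0.63 and -0.20) lie on opposite sides of 0, and those of Rpl23 (0.94 and 0.56) on the same side.

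The mitochondrial genes spread to both sides and did so in the same way on the arrays. Across the 71 genes, array 1 correlated with array 2 at r = 0.90 and with array 3 at 0.69, and arrays 2 and 3 at 0.71. Across the 66 cytosolic genes the same correlations were 0.77, 0.25 and 0.15, and across all genes 0.46, 0.17 and 0.16. These are descriptions across genes that share the arrays. The same sign on all 3 arrays was shown by 42 mitochondrial genes, 20 positive and 22 negative, and by 24 cytosolic genes, 11 positive and 13 negative. Over all genes 21.3% were positive and 19.9% negative on every array, so the mitochondrial shares of 28.2% and 31.0% lay above these and the cytosolic shares of 16.7% and 19.7% did not. The median SD over the arrays was 0.15 for cytosolic and 0.19 for mitochondrial genes, against 0.32 for all genes.

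**Figure D3:**
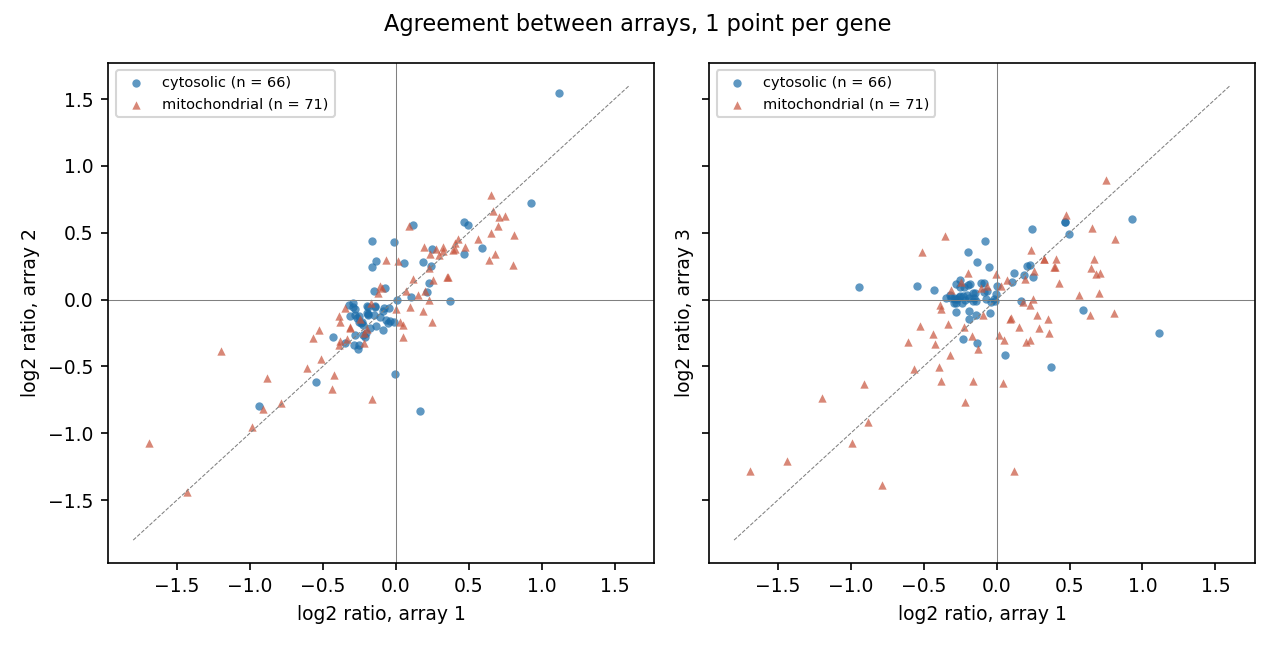
Deposited log2 ratio on array 1 (horizontal axis) against array 2 (left) and array 3 (right), 1 point per gene, with circles for 66 cytosolic and triangles for 71 mitochondrial genes and a dashed line of equal values. Mitochondrial genes follow the line over a wide range (r = 0.90 and 0.69), while cytosolic genes cluster near 0, mostly below it on array 1 and mostly above it on array 3 (r = 0.77 and 0.25).

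The most negative mitochondrial genes were Mrpl9 and Mrpl10, large subunit proteins with bacterial counterparts. Mrpl9 had -1.43, -1.44 and -1.21 on arrays 1, 2 and 3, a mean of -1.36 ± 0.13 and a 2.57-fold difference (limma adjusted p = 0.107). Mrpl10, at the base of the stalk that binds elongation factors, had -1.69, -1.08 and -1.28, a mean of -1.35 ± 0.31 (limma adjusted p = 0.109). All 3 arrays were far to the negative side for both. Mrpl12, the next protein of the stalk, stood nearer 0 at -0.26 ± 0.34, with 0.05, -0.19 and -0.63.

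Mrps30, which carries a small subunit name but sits in the large subunit in structures of the mammalian mitochondrial ribosome, had -0.99, -0.95 and -1.07 (mean -1.0 ± 0.06, 2.01-fold, limma adjusted p = 0.109). The arrays lay close together. Mrps5, a small subunit protein whose bacterial counterpart affects the accuracy of decoding, had -0.79, -0.78 and -1.39 (mean -0.98 ± 0.35). Mrpl9, Mrpl10 and Mrps30 were the 3 members with a mean of 1 or more in size, 3 of 71 mitochondrial genes and 0 of 66 cytosolic genes, against 5.33% of all genes.

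Next on that side came Mrpl37, Mrpl17, Mrps23 and Mrpl44. Mrpl37, a protein found only in mitochondrial ribosomes, averaged -0.80 ± 0.18, Mrpl17, with a bacterial counterpart, -0.79 ± 0.14, Mrps23, specific to mitochondria, -0.77 ± 0.41, and Mrpl44, which resembles ribonuclease III enzymes, -0.51 ± 0.30. Their limma adjusted p ranged from 0.144 to 0.291. Array 1 was the farthest from 0 for Mrps23, at -1.20, and the nearest to 0 for Mrpl44, at -0.16.

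At the positive end, Mrpl32, a large subunit protein that must be cut by a mitochondrial protease before it is built in, had 0.75, 0.62 and 0.89 on arrays 1, 2 and 3 (mean 0.75 ± 0.13, 1.69-fold, limma adjusted p = 0.147). Mrpl1, of the mobile stalk next to the exit site for transfer RNA, had 0.65, 0.78 and 0.54 (mean 0.66 ± 0.12, limma adjusted p = 0.171). Mrpl18 had 0.81, 0.48 and 0.46 (mean 0.58 ± 0.20). All arrays were positive for the 3 genes. Mrps6 (0.55 ± 0.21), Mrps21 (0.51 ± 0.27), Mrpl42 (0.50 ± 0.12), Mrps24 (0.46 ± 0.21) and Mrps9 (0.43 ± 0.34) came next, with limma adjusted p from 0.232 to 0.360.

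**Figure D4:**
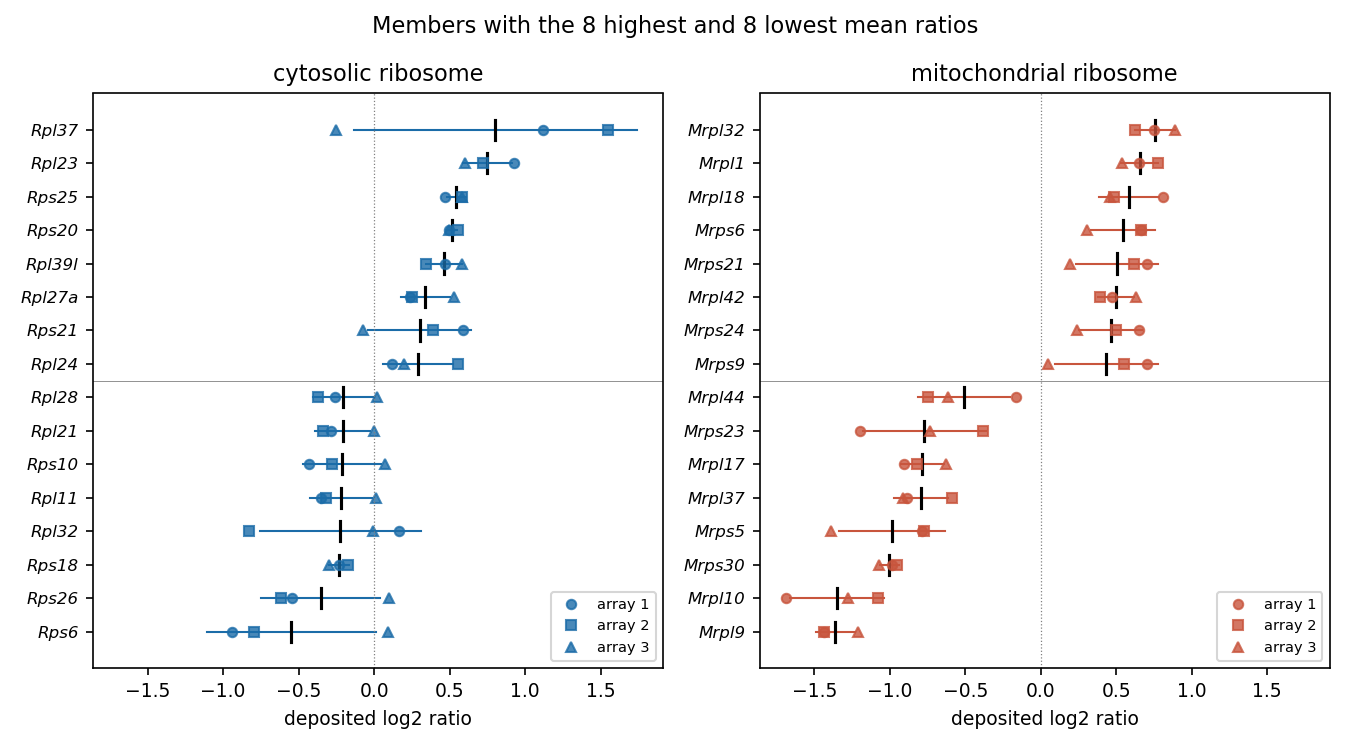
Deposited log2 ratio (horizontal axis) on each array (symbols), with the mean (black bar) and SD (line), for the 8 genes of highest and the 8 of lowest mean ratio of the cytosolic (left) and mitochondrial (right) ribosome. The mitochondrial genes shown, from Mrpl32 (0.75) to Mrpl9 (-1.36), keep all arrays on 1 side of 0. The cytosolic genes shown are mixed. The lowest, Rps6 (-0.55), and the highest, Rpl37 (0.80), have array 3 on the other side. Rpl23, Rps25, Rps20, Rpl39l, Rpl27a and Rpl24 are positive on every array, and Rps18 is negative on every array.

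Neighbours in this order were closer together than their errors: the half-width of the limma 95% interval of a mean was 0.40 for Mrpl1, 0.39 for Mrps30 and 0.38 for Rps20, the narrowest of those named. Every array placed Mrpl9, Mrpl10, Mrps30 and Mrps5 below -0.75 and Mrpl32 and Mrpl1 above 0.5. These genes were picked as the ends of the order on the same arrays, so their separation is a description with no test.

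The mitochondrial genes were next grouped by origin and subunit. In the large subunit, 27 measured genes with a bacterial counterpart had a median of 0.03, from -1.36 to 0.75, with 3 positive and 5 negative at an unadjusted limma p under 0.05, and 18 genes specific to mitochondria had a median of -0.12, from -0.80 to 0.50, with 1 positive and 4 negative. In the small subunit the 17 genes with a bacterial counterpart had a median of 0.03, with 3 positive and 1 negative, and the 8 specific genes a median of -0.04, with 0 positive and 2 negative. The groups follow the genes' names, and 1 of these 2 is Mrps30; without it, 7 genes had a median of -0.01 and 1 was negative, namely Mrps23. Over all genes 8.99% were positive and 7.83% negative by this measure. Large subunit genes with a bacterial counterpart held both the most negative and the most positive gene. Cytosolic proteins with counterparts in bacteria had medians of -0.02 over 10 small subunit and -0.07 over 15 large subunit genes.

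Other genes of translation came from lists of factors. Of 31 measured initiation factors, 2 were positive and 5 negative at an unadjusted limma p under 0.05, with a median of -0.06; Eif2b2, of the factor that recharges eIF2, stood at -1.28 ± 0.18, and Eif3b, a core eIF3 subunit, at -1.96 ± 0.92. Of 10 elongation and termination factors 0 were positive and 3 negative: Eef1a1, which delivers transfer RNA, at -0.99 ± 0.26, Eef2, which moves the ribosome along, at -0.58 ± 0.13, and the release factor Etf1 at -0.52 ± 0.15. Of 37 ribosome assembly genes 0 were positive and 8 negative, with a median of -0.03, and Rrp1, a nucleolar protein, stood lowest by p at -1.53 ± 0.20, with Polr1e, an RNA polymerase I subunit, at -1.02 ± 0.17. Over all genes 8.99% were positive and 7.83% negative by this measure, and 0 of these genes passed limma over all genes.

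A further list held factors of mitochondrial translation and ribosome assembly, and with them some proteins of the mitochondrial ribosome itself (Dap3, Ptcd3, Chchd1 and Mrpl58). Of its 22 measured genes, 16 had a negative mean and 13 were negative on all 3 arrays, against 19.9% of all genes; the median was -0.39 beside -0.01 for the mitochondrial ribosomal proteins and 0.00 for all genes, a description with no test. Without those ribosomal proteins, a choice made after seeing the data, 18 genes had a median of -0.39, and 11 were negative on all 3 arrays. The RNA helicases Dhx30 and Ddx28, which act in assembly, stood at -0.91 ± 0.31 and -0.66 ± 0.25, the assembly GTPase Eral1 at -0.93 ± 0.51, and Tsfm, the exchange factor of mitochondrial elongation, at -0.71 ± 0.32. Of the 22, limma gave 1 positive and 7 negative at an unadjusted p under 0.05 and 0 at an adjusted p under 0.05, against 8.99% positive and 7.83% negative of all genes unadjusted. The array medians were -0.17, -0.23 and -0.58 on arrays 1, 2 and 3, lowest on the array that stood apart over all genes. Of 8 measured mitochondrial transfer RNA synthetases, 7 had a negative mean, with a median of -0.08 and 0 at an unadjusted limma p under 0.05.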

How the data were processed

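The deposited log2 values are ratios between the 2 channels of an array. Per the labels, amplified RNA was hybridised to a Compugen mouse oligo array, images were read with ImaGene, and ratios were normalized in R by print-tip loess and between arrays. The labels also describe a lowess curve over 20% of the data, with control values under 10 set to 10, and a dye swap whose array is not named. They name no numerator. Spot intensities were not used here, so dim spots could not be examined. The number of arrays limits the precision.

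Of 22702 spots, 21819 library oligos were kept. Oligos of a symbol were averaged, those with several symbols or none kept their identifiers, and a value on all 3 arrays was required. Limma 3.58.1 (R 4.3.3) tested each mean ratio against 0 (intercept only, eBayes, two-sided, Benjamini-Hochberg over 19635 genes, threshold 0.05). This fit was also run on simulated data with changes larger than any member's mean ratio. That run does not show how often changes of the sizes seen here would be found. Because normalization centres the ratios, a change shared by most genes could not be seen. Promoter sequences are from RefSeq, build GRCm38.p6.

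Named members were the 8 highest and 8 lowest of each class, those with an unadjusted p under 0.05 and a mean of 0.5 or more in size, and fixed genes: the stalk, Rpl5 and Rpl11, paralogues and parents, Rps6, Rps19 and Mrpl12. Members and lists were chosen with earlier results of these data known. Alternatives covered oligo averaging, missing values, between-array scaling, lowest ratios, the variance model, array weights, and each array left out.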

Additional observations from a re-analysis of the deposited data

How the results depend on the processing

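Each ratio compares the tissues on the same array, so the test of its mean against 0 was already paired by array. The 3 arrays form a single group, and no further pairing was used. In every alternative run, limma called 0 cytosolic and 0 mitochondrial genes at an adjusted p under 0.05. The cytosolic median ran from -0.13 to -0.04 and the mitochondrial median from -0.03 to 0.04 with 1 array left out. Cytosolic genes at an unadjusted p under 0.05 numbered 4, but 7 with each oligo tested on its own, 7 with array weights, and from 0 to 6 with 1 array left out; mitochondrial genes numbered 19, and from 8 to 18 with 1 array left out (8 without array 1, 8 without array 2), 27 with array weights and 17 with quantile normalization. The fits with 1 array left out rest on 2 arrays. The share of all genes at an unadjusted p under 0.05 was counted in the main fit only. A change in these member counts thus cannot be told apart from a change over all genes. The single call over all genes ended (0 calls) with arrays scaled to the same MAD, with oligos at the lowest ratio left out, and without any of the arrays. Of 554 gene means under alternatives for 46 named genes, 544 kept their sign. The others changed sign. With 1 array left out, Rpl10 ran from -0.147 to 0.0056 (without array 1), Rpl22 from -0.049 to 0.054 (without array 1), Rpl32 from -0.419 to 0.079 (without array 2), Rpl3l from -0.256 to 0.18 (without array 3) and Rps27l from -0.033 (without array 2) to 0.048. Rps27l stood at -0.0038 with arrays centred and Rpl3l at 0.058 with array weights. Single oligos stood at -0.060 for Rpl27a, the same with small RNA oligos left out, and -0.077 for Rplp0. The causes were not tested.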

Other observations

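A few ribosomal proteins have names outside the Rpl, Rps, Mrpl and Mrps series. Fau, which encodes the cytosolic small subunit protein RPS30 fused to a ubiquitin-like protein, had -0.22, -0.30 and 0.06 on arrays 1, 2 and 3 (mean -0.15 ± 0.19), the same form as Rpl5 and Rpl11. Of the mitochondrial small subunit proteins with other names, Chchd1 stood at 0.37 ± 0.14 and Ptcd3 at -0.56 ± 0.46, on either side of 0. Dap3, a GTP-binding protein of that subunit, had -0.70, -4.27 and -0.79, so array 2 carried most of its mean of -1.92 ± 2.04. Limma's adjusted p was 0.674 for Fau, 0.328 for Chchd1, 0.325 for Ptcd3 and 0.337 for Dap3. These genes were picked from the lists because they are ribosomal proteins, with their values known.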
